A study of Mus musculus with 25 samples.

Results

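Glycolysis and the response to hypoxia were described through 42 listed genes: glucose and lactate transporters, the glycolytic enzymes with their isozymes, the enzymes that set the level of fructose-2,6-bisphosphate, the lactate dehydrogenases, the kinases of pyruvate dehydrogenase, the mitochondrial pyruvate carrier, subunits and prolyl hydroxylases of the hypoxia-inducible factors (HIF), and 5 further genes known to respond to hypoxia. The genes were chosen by symbol. The long-term table held 41 of them among 15315 genes and the short-term table held 37 among 14007, and each passed the filter on low values. *Eno1* was in neither table, and *Pgk1*, *Pgam2*, *Pdk3* and *Car9* were not in the short-term one, so they are not analysed here for those mice.

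The data were RNA-seq libraries of pituitaries from sh*Rb* mice, 1 library per mouse. These mice carry rtTA at *Rosa26* and, at *Col1a1*, a TRE promoter that drives GFP with a single shRNA against *Rb* (sh*Rb*5), and they descend from 1 embryonic stem cell clone. Doxycycline (dox) in the drinking water switches on the shRNA wherever the broadly active *Rosa26* promoter gives enough rtTA, and its removal lets *Rb* return. By the paper's methods the dox water also held sucrose, which was not added to the water without dox. Dox, sucrose and the shRNA thus changed together in the groups taken off dox, and their parts cannot be told apart. Every group carries both transgenes and was given dox for at least 6 weeks, started in adult mice, and no untreated pituitary is among the libraries. In the long-term experiment, 3 mice had 6 weeks of dox (6w+dox, all female), 4 had 12 weeks (12w+dox, replicates 1 and 2 female, 3 and 4 male), and 5 had 6 weeks of dox followed by 6 weeks without (12w-res, replicates 1 and 2 male, 3 to 5 female). In the short-term experiment, 3 male mice had 16 weeks of dox (16w +dox), and others were taken 1 day (1d -dox, 4 females), 3 days (3d -dox, 3 males) or 5 days (5d -dox, 3 females) after it was removed. The long-term comparisons ask how lesions change with longer RB loss and with lasting RB return, and the short-term ones ask what changes in the first days after dox removal in advanced tumors.

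Glycolysis turns glucose into pyruvate, which is either reduced to lactate by lactate dehydrogenase or carried into mitochondria and oxidised by pyruvate dehydrogenase. HIF-1 alpha (*Hif1a*) and HIF-2 alpha (*Epas1*) are destroyed in oxygenated cells after prolyl hydroxylases such as *Egln1* and *Egln3* mark them, and when they persist they raise transcription of many glycolytic genes, of *Pdk1*, and of *Egln3* itself. In mice that lack RB, pituitary tumors arise from the melanotrophs of the intermediate lobe, cells that make the hormone precursor *Pomc*.

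Values are FPM, the number of reads on a gene scaled for library depth with the size factors of DESeq2. Reads on genes numbered 19066053 to 28968476 per long-term library and 9573101 to 13036900 per short-term library. The listed genes took 0.680% to 1.04% of them at 12w+dox, 0.559% to 0.663% at 6w+dox and 0.507% to 0.565% in 12w-res, where *Pomc* alone took 39.1% to 43.2%. In the 12w+dox libraries *Pomc* took 12.9% to 23.0%, and in those of 6w+dox 13.6% to 32.2%. *Rb1*, the target of the shRNA, was at 1.86, 2.54 and 5.09 FPM in the 6w+dox mice, at 3.45, 2.42, 2.93 and 4.05 FPM in the 12w+dox mice and at 16.1, 17, 20.3, 19.2 and 18.2 FPM in the 12w-res mice. In the short-term mice *Rb1* was at 4.19 ± 0.709, 4.46 ± 1.07, 5.01 ± 0.911 and 5.12 ± 0.239 FPM (SD, n = 3, 4, 3 and 3) in 16w +dox, 1d -dox, 3d -dox and 5d -dox, while GFP went from 1025 to 1360.4 FPM in 16w +dox to 9.34 to 15.2 in 5d -dox. Melanotroph markers, *Pomc* included, were present in all groups and summed to 109511 to 381214 FPM in the 6w+dox mice, 96002 to 198293 in the 12w+dox mice and 458751 to 581048 in the 12w-res mice. *Pomc* made up most of these sums, and the 6 markers were mixed. At an adjusted p under 0.05 (limma), 1 was higher and 1 lower at 12w+dox against 6w+dox. In 12w-res, 2 were higher and 1 lower against 12w+dox, and 3 were higher and 1 lower against 6w+dox. In bulk tissue, fewer cells of a type and less RNA per cell cannot be told apart.

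From 6 to 12 weeks of dox, *Pfkfb3*, *Hk2*, the lactate exporter *Slc16a3*, *Pdk1* and *Egln3* were higher, and *Epas1*, *Eno3* and *Ldhb* were lower. A gene passed at an adjusted p under 0.05 (limma, Benjamini-Hochberg over all genes). Of the 41 genes, 12 rose (29.3%) and 4 fell (9.76%), while 10.4% of all 15315 genes rose and 12% fell. The median log2 fold change was 0.43 for the listed genes and -0.0063 for all genes. The groups did not overlap for 12 of the 41 genes in the upward direction and for 3 in the downward one, where 12.9% and 12.4% of all genes did so. With an absolute log2 fold change over 1 as well, 4 rose and 3 fell, and 3.15% and 4.04% of all genes did. The summed pars distalis and neural lobe markers, given below, were lower at 12w+dox. Their part in the rises and falls of the listed genes was not tested.

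*Pfkfb3* makes fructose-2,6-bisphosphate, the strongest activator of phosphofructokinase. It was at 6.52, 10.4 and 7.95 FPM in the 6w+dox mice and at 21.0, 36.8, 42.6 and 30.7 FPM in the 12w+dox mice. All 12w+dox mice lay above all 6w+dox mice, with a log2 fold change of 1.90 (SE 0.28, adjusted p = 0.000692). *Pfkfb4*, a second enzyme of this kind, rose less (log2 fold change 0.64, adjusted p = 0.00308), and *Pfkfb2* did not pass.

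Among the transporters, *Slc16a3* (MCT4, which exports lactate) was at 16.0, 20.7 and 8.53 FPM at 6w+dox and at 24.8, 50.3, 53.7 and 33.0 FPM at 12w+dox. The groups did not overlap, though 12w+dox replicate 1 stood only a little above the highest 6w+dox mouse, and the log2 fold change was 1.42 (SE 0.33, adjusted p = 0.00873). *Slc2a3* (GLUT3) rose by a log2 fold change of 0.71 (adjusted p = 0.00939). *Slc2a1*, the widely expressed glucose transporter GLUT1, had values of 83.5, 70.0 and 51.3 FPM at 6w+dox and 55.7, 119.9, 131 and 69.9 FPM at 12w+dox that overlapped, and did not pass (log2 fold change 0.40, adjusted p = 0.273).

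*Hk2*, the inducible hexokinase that traps glucose in the cell, was at 7.39, 10.6 and 4.26 FPM at 6w+dox and 15.5, 21.7, 19.9 and 15.1 FPM at 12w+dox. The groups stood apart, with a log2 fold change of 1.29 (SE 0.35, adjusted p = 0.0176). *Pfkl* and *Pfkm*, the liver and muscle types of phosphofructokinase, rose by log2 fold changes of 0.68 and 0.48, *Pgk1* (phosphoglycerate kinase) by 0.74 and *Pkm* (pyruvate kinase) by 0.67. Of the 9 genes from hexokinase to triosephosphate isomerase 3 rose and 0 fell. Of the 8 from *Gapdh* to *Pkm* 2 rose and 2 fell, 1 of the falls being *Eno1b*, whose values are uncertain, and the difference between these blocks was not tested.

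Past pyruvate, *Ldha*, which makes lactate, was at 222, 249 and 118 FPM at 6w+dox and 215, 380.0, 507 and 278 FPM at 12w+dox, with overlap and no pass (log2 fold change 0.81, adjusted p = 0.0602). *Ldhb*, the form that favours lactate use, was at 33.9, 38.0 and 27.9 FPM and 15.2, 19.1, 22.4 and 16.4 FPM, lower in every 12w+dox mouse (log2 fold change -0.85, SE 0.16, adjusted p = 0.00308). *Pdk1*, which switches off pyruvate dehydrogenase, was at 43.0, 39.7 and 37.0 FPM and 76.4, 80.7, 96.3 and 66.7 FPM, higher in every 12w+dox mouse (log2 fold change 0.99, SE 0.13, adjusted p = 0.000465). The 2 genes of the mitochondrial pyruvate carrier did not pass, with log2 fold changes of 0.41 for *Mpc1* and -0.54 for *Mpc2* (adjusted p = 0.225 and 0.0893).

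Of the oxygen-sensing genes, *Egln3* was at 11.9, 8.77 and 7.78 FPM at 6w+dox and at 23.9, 27.3, 28.0 and 20.8 FPM at 12w+dox, with no overlap (log2 fold change 1.37, SE 0.26, adjusted p = 0.00332). *Hif1a* did not pass (84.0 ± 6.17 FPM against 101 ± 10.6, SD, n = 3 and 4, log2 fold change 0.27, adjusted p = 0.103). *Bnip3*, a mitophagy receptor, rose by a log2 fold change of 0.96 (adjusted p = 0.0382), and *Car9*, *Adm*, *Ankrd37* and *Ndrg1* did not pass.

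*Epas1* fell. It was at 39.4, 33.8 and 38.7 FPM at 6w+dox and at 32.7, 13.2, 9.92 and 26.0 FPM at 12w+dox, where replicate 1 was just under the lowest 6w+dox mouse and replicate 3 was lowest (log2 fold change -1.0, SE 0.30, adjusted p = 0.0275). Endothelial cells are known to express *Epas1* strongly, and the summed FPM of 8 endothelial markers was 198 to 256 in the 6w+dox mice but 71.7 to 141 in the 12w+dox mice. Of those markers 5 fell and 0 rose, and none was at 0 in all mice. Their part in the *Epas1* difference was not tested.

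*Eno3*, the enolase best known from muscle, was at 106, 97.3 and 96.5 FPM at 6w+dox and at 35.2, 58.5, 36.3 and 28.9 FPM at 12w+dox (log2 fold change -1.37, SE 0.25, adjusted p = 0.00268), lower in each of the 4 mice. Beside the falls of *Eno3* and *Ldhb*, the summed FPM of 8 pars distalis hormone cell markers was 58669 to 94156 in the 6w+dox mice but 1217 to 13053 in the 12w+dox mice, with 6 markers lower and 0 higher, and that of 4 neural lobe markers was 44.5 to 130.3 and 4.05 to 13.4, with 4 lower. The 3 skeletal muscle markers in the table summed to 10.4 to 16.1 FPM and 5.30 to 10.7 FPM. The part of these cells in the falls, and in the rises given above, was not tested.

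*Eno1b* is a separate enolase locus whose transcript matches that of *Eno1* at 99.455% of 1652 aligned bases (GENCODE vM21), so its reads could belong to the near copy and its values are uncertain. It was at 27.3, 22.1 and 15.8 FPM at 6w+dox, at 22.1 FPM in 12w+dox replicate 1 and at 0.233, 0.431 and 0.251 FPM in the other 12w+dox mice. The 5 mice of 12w-res had 3 or 4 reads each (0.137 to 0.221 FPM). It passed as lower at 12w+dox (log2 fold change -3.56 on the log2(FPM + 0.5) scale, adjusted p = 0.0116), but not by edgeR (-1.93, adjusted p = 0.215) or DESeq2 (-1.92, adjusted p = 0.289), and the 12w+dox values fell into 1 mouse at the 6w+dox level and 3 near 0.

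**Figure D1:**
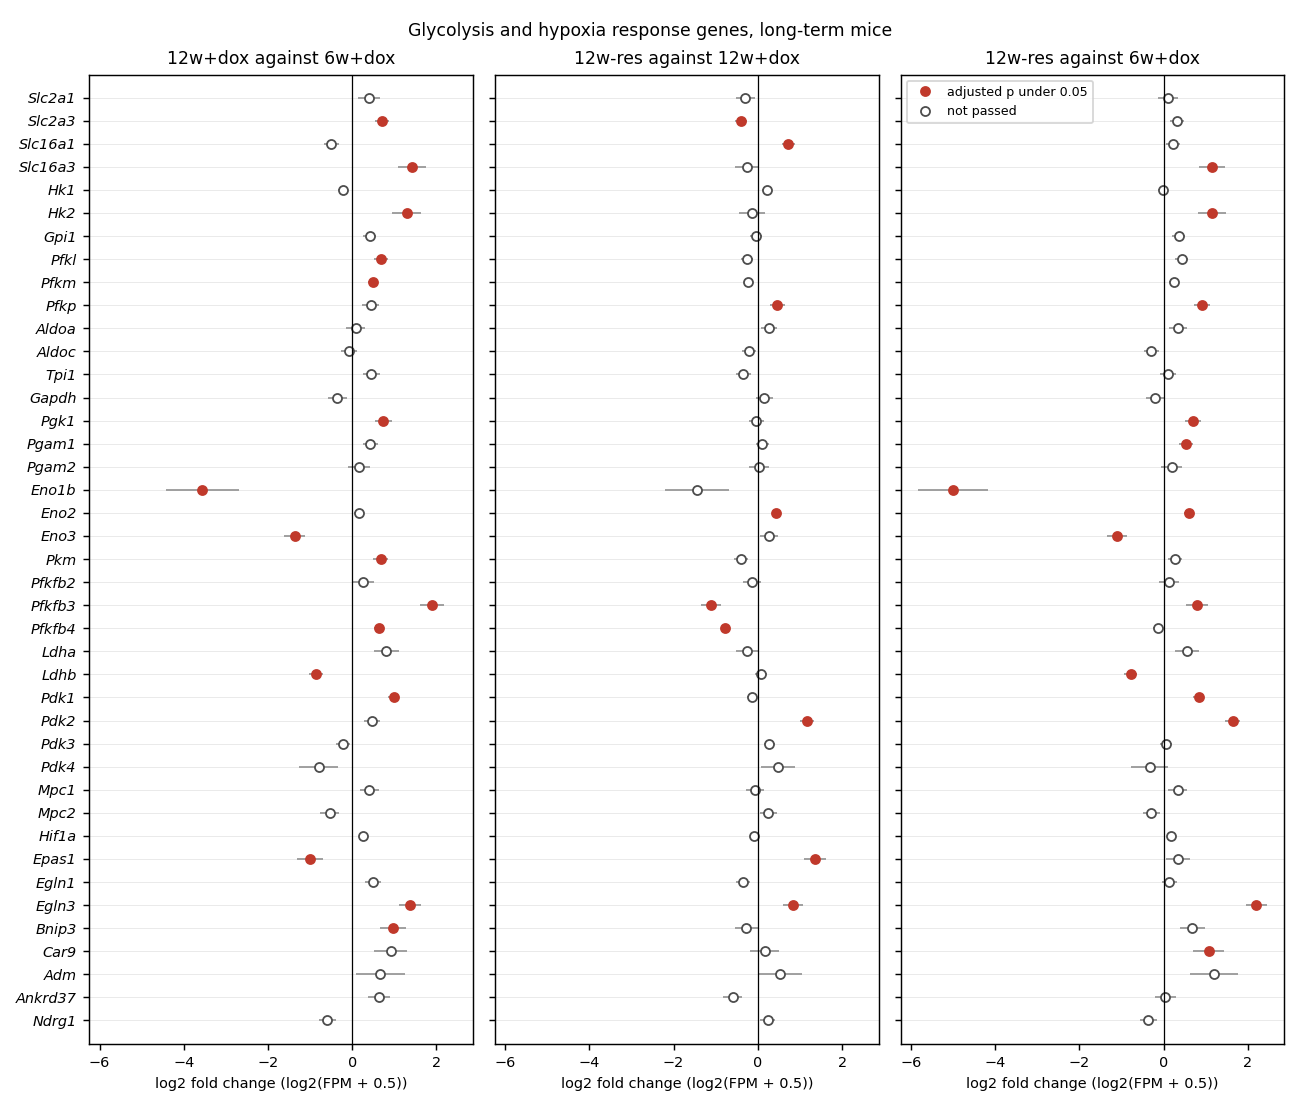
Log2 fold change (x axis, log2(FPM + 0.5) scale, bars are the standard error) of the 41 listed genes (y axis) in the 3 long-term comparisons. Filled points passed at an adjusted p under 0.05: 12 higher and 4 lower at 12w+dox against 6w+dox, 6 and 3 in 12w-res against 12w+dox, and 11 and 3 in 12w-res against 6w+dox.

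**Figure D2:**
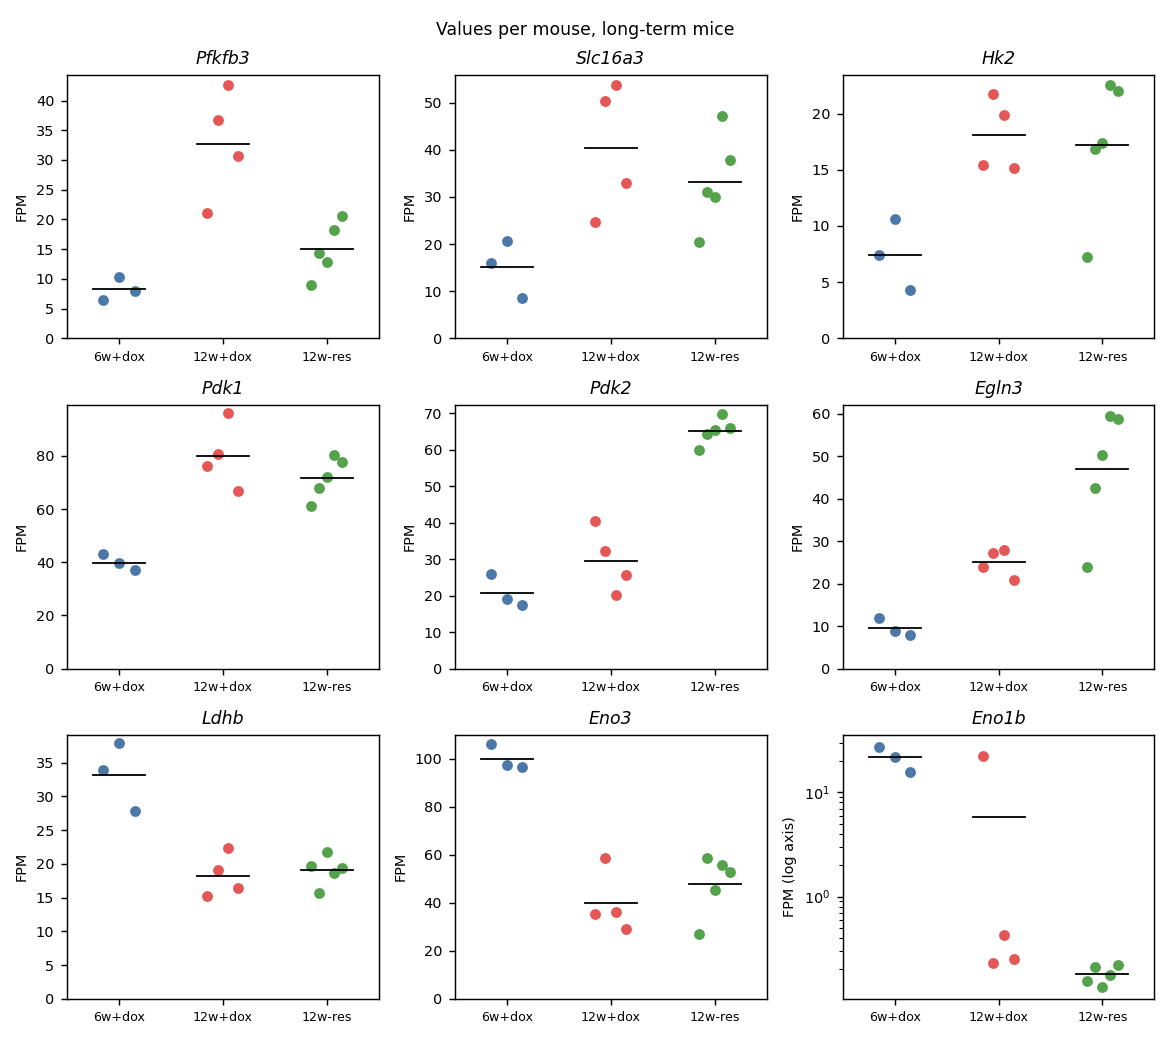
FPM of 9 of the genes in each long-term mouse (points, replicate order from left to right within a group, bars at the group mean); the axis of *Eno1b* is a log axis. *Pfkfb3* is highest at 12w+dox (21.0 to 42.6 FPM), *Pdk2* and *Egln3* have their highest means in 12w-res, and *Eno3* and *Ldhb* at 6w+dox.

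Among the genes that passed or are named in every long-term comparison, the call of 6 changed when 1 mouse was left out. Other listed genes gained a pass too: 15 genes rose without 12w+dox replicate 1, and 7 fell without 6w+dox replicate 3. *Pgk1* lost its pass without 12w+dox replicate 2 (adjusted p = 0.0560), *Pkm* without that mouse or 6w+dox replicate 2 (up to 0.0575), *Epas1* without 12w+dox replicate 2 or 3 or 6w+dox replicate 1 or 2 (up to 0.0786), and *Bnip3* in 8 of 12 such fits (without 12w+dox replicate 2 or 3, 12w-res replicate 2, 3 or 5, or any 6w+dox mouse, up to 0.102). *Ldha* gained a pass as higher without 12w+dox replicate 1, and *Mpc2* gained one as lower without 12w+dox replicate 3 or 6w+dox replicate 3. All 6w+dox mice were female while 12w+dox and 12w-res held males too, so sex is partly mixed with group in the comparisons against 6w+dox. With females only, 5 genes rose and 2 fell, *Pfkfb3* and *Hk2* being among those that rose. When libraries were scaled by their totals of recovered reads instead, the median of all genes itself moved to 0.29, and 23 genes rose and 3 fell. The share of all genes called with that scaling is not given here, so these counts have no background beside them. Relative to the median of all genes the listed genes lay at 0.46 with totals and at 0.43 with the deposited scaling.

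Promoters are shown for genes with the largest changes, of which 3 rose and *Eno3* fell, so that the letters around each start can be read beside the values. *Egln3* is a textbook HIF target, and the core that HIF binds is short. RefSeq promoters (GRCm38.p6, 250 bases before to 50 bases after a listed start site, printed on the gene's strand) were searched on both strands for ACGTG and GCGTG. These are printed in capitals where they occur (on the other strand they read CACGT and CACGC). The letters CACGTG hold ACGTG on both strands and are also the E-box read by other factors. *Pfkfb3* has 2 start sites, at chr2:11553880-11554179 and chr2:11502041-11502340, and the data do not tell which was used. The window of *Slc16a3* lies at chr11:120948817-120949116, that of *Egln3* at chr12:54203825-54204124 and that of *Eno3* at chr11:70656926-70657225. The windows of *Slc16a3* and *Eno3* lie inside the RefSeq gene, which begins at chr11:120948484 and chr11:70653125. The letters around those gene starts were not searched, and the data do not tell which start was used.
Pfkfb3, site 1, minus strand: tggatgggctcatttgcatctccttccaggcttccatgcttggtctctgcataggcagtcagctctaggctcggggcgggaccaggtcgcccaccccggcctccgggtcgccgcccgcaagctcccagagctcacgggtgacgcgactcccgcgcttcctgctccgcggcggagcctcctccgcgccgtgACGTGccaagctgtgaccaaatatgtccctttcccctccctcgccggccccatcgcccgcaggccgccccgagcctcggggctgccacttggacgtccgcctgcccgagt
Pfkfb3, site 2, minus strand: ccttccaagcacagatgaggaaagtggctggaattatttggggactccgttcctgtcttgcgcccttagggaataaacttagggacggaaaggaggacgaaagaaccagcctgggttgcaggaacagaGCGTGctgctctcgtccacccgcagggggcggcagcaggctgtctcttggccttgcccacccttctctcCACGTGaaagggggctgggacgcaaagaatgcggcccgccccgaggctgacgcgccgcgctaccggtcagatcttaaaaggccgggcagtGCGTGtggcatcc
Slc16a3, plus strand: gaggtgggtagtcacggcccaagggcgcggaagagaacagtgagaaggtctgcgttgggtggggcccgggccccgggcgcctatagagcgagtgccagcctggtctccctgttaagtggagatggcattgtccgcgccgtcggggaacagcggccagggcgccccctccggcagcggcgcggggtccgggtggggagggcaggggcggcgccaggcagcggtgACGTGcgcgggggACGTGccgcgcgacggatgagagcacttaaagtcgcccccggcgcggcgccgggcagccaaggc
Egln3, minus strand: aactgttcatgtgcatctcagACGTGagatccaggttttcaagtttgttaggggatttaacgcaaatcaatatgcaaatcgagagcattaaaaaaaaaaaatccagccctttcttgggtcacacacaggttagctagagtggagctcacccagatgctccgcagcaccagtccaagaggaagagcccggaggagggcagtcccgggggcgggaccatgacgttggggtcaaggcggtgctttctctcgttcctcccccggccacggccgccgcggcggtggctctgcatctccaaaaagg
Eno3, plus strand: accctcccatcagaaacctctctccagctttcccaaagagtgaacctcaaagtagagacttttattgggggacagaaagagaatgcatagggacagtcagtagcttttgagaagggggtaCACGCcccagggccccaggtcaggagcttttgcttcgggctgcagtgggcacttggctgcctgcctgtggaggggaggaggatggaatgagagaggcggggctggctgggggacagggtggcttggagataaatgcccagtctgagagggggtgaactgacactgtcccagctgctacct

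Site 1 of *Pfkfb3* held 1 core, 60 bases before the start, and site 2 held 4, of which 2 overlap in CACGTG from 53 bases before the start. *Slc16a3* held 2, at 27 and 14 bases before the start, *Egln3* held 1 at 229 bases before it, and *Eno3* held 1 on the other strand at 130 bases before it. The core was in 80.0% of 55 promoters of the listed genes and in 43.8% of all 32851 promoters. Of the 14695 promoters of genes in the long-term table, 59.6% held it. By gene, 34 of the 38 listed genes with a promoter in the table held it (89.5%), as did 65.3% of the 11536 genes of the long-term table with one. All 11 genes with a promoter that rose from 6w+dox to 12w+dox held it, and so did both that fell. *Slc2a3*, *Eno1b*, *Epas1* and *Ndrg1* had none in the table. A match of letters is not a binding site.

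With lasting RB return these genes did not move as one. In 12w-res against 12w+dox, *Pfkfb3* and *Pfkfb4* fell, *Hk2*, *Pdk1* and *Slc16a3* did not pass, and *Egln3*, *Pdk2* and *Epas1* rose. Of the 41 genes 6 rose (14.6%) and 3 fell (7.32%), while 19.4% of all genes rose and 18.3% fell, shares above those of the listed genes. The count of falls rested on 1 mouse and on the tool: without 12w+dox replicate 1, or by DESeq2, 7 fell. The share of all genes that fell in those fits is not given here, so this count has no background beside it. The median log2 fold change of the 41 genes was -0.054. The groups did not overlap for 4 genes upward and 3 downward, against 17.1% and 17.4% of all genes. At a log2 fold change over 1, 2 rose and 1 fell, with 6.24% and 5.04% of all genes. This comparison shares the 12w+dox mice with the one above.

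*Pfkfb3* was at 8.94, 14.4, 12.9, 18.3 and 20.5 FPM in the 12w-res mice, below each 12w+dox mouse (21.0 to 42.6 FPM), with a log2 fold change of -1.11 (SE 0.24, adjusted p = 0.00282). *Pfkfb4* was at 30.6, 29.6, 35.4, 27.5 and 31.4 FPM against 47.0, 51.4, 62.4 and 53.4 FPM, again without overlap (log2 fold change -0.78, adjusted p = 8.36e-05). *Slc2a3* fell by 0.40 on the log2 scale (adjusted p = 0.0458) with overlapping groups.

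*Pdk2*, the pyruvate dehydrogenase kinase found in most tissues, was at 59.8, 64.2, 65.4, 69.7 and 66.0 FPM in 12w-res and at 40.4, 32.1, 20.1 and 25.7 FPM in 12w+dox. Every 12w-res mouse lay above every 12w+dox mouse, and the 12w-res values spread little (log2 fold change 1.17, SE 0.17, adjusted p = 0.000147). *Pdk1* stayed at 61.0, 68.0, 72.0, 80.3 and 77.6 FPM, overlapping the 12w+dox mice (log2 fold change -0.15, adjusted p = 0.336).

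*Epas1* was at 41.7, 45.4, 52.1, 50.4 and 47.8 FPM in 12w-res, above all 12w+dox mice (9.92 to 32.7 FPM), with a log2 fold change of 1.35 (SE 0.26, adjusted p = 0.00124). The 8 endothelial markers summed to 215 to 291 FPM in 12w-res and 71.7 to 141 FPM at 12w+dox, with 7 of them higher and 0 lower, and their part in the *Epas1* difference was not tested. *Slc16a1* (MCT1, which carries lactate both ways) rose with groups that stood apart (log2 fold change 0.72, adjusted p = 0.00257).

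*Egln3* was at 23.9, 42.6, 50.4, 59.5 and 58.8 FPM in 12w-res and rose further above 12w+dox (20.8 to 28.0 FPM), though replicate 1 lay among the 12w+dox mice (log2 fold change 0.84, SE 0.23, adjusted p = 0.0109). *Hif1a* did not pass, and its change was smaller than its SE (log2 fold change -0.082, SE 0.099, adjusted p = 0.542). *Eno2*, the neuronal enolase, and *Pfkp*, the platelet type of phosphofructokinase, rose by 0.44 and 0.46 on the log2 scale (adjusted p = 0.0056 and 0.0474).

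The remaining genes given for every long-term comparison did not pass here. Log2 fold changes were -0.30 for *Slc2a1* (adjusted p = 0.314), -0.15 for *Hk2* (0.733), -0.25 for *Ldha* (0.461), -0.40 for *Pkm* (0.061), -0.071 for *Mpc1* (0.811) and 0.25 for *Mpc2* (0.323). *Slc2a3* and *Pfkp* lost their pass in 8 and 7 of 12 fits that left out 1 mouse (for *Slc2a3* any of 12w+dox replicates 2 to 4, 12w-res replicates 1 to 4 or 6w+dox replicate 2, up to an adjusted p of 0.120; for *Pfkp* 12w+dox replicate 1 or 4, 12w-res replicates 2 to 5 or 6w+dox replicate 2, up to 0.154). *Pkm* gained a pass as lower without 12w+dox replicate 1 or 6w+dox replicate 1 or 3. With totals of recovered reads the median of all genes moved to -0.61, and 2 listed genes rose and 27 fell. These counts again have no share of all genes beside them. Relative to the median of all genes the listed genes lay at -0.095 with totals and at -0.050 with the deposited scaling.

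Against 6w+dox, the point at which their dox was removed, the 12w-res mice had higher *Egln3*, *Pdk2*, *Pdk1*, *Slc16a3* and *Hk2* and lower *Eno3* and *Ldhb*. Of the 41 genes 11 rose (26.8%) and 3 fell (7.32%), while 17% of all genes rose and 16.8% fell, and the medians were 0.27 and -0.021. The groups did not overlap for 12 genes upward and 3 downward, against 16.9% and 15.9% of all genes. At a log2 fold change over 1, 5 rose and 2 fell, with 5.81% and 5.82% of all genes. The comparison shares the 6w+dox mice with the first and the 12w-res mice with the second.

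*Egln3* had its largest difference here, 23.9 to 59.5 FPM in 12w-res against 7.78 to 11.9 FPM at 6w+dox (log2 fold change 2.20, SE 0.25, adjusted p = 1.92e-05). *Pdk2* followed with 59.8 to 69.7 FPM against 25.8, 19.2 and 17.5 FPM (log2 fold change 1.64, SE 0.19, adjusted p = 1.93e-05). *Pdk1* was higher by 0.84 (adjusted p = 0.000239). None of the 3 genes overlapped between the groups.

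*Slc16a3* was at 20.3, 31.0, 30.0, 47.1 and 37.8 FPM in 12w-res, with replicate 1 within the 6w+dox range (8.53 to 20.7 FPM; log2 fold change 1.15, SE 0.31, adjusted p = 0.0117). *Hk2* was at 7.23, 16.9, 17.4, 22.6 and 22.0 FPM, again with replicate 1 within the 6w+dox range (4.26 to 10.6 FPM; log2 fold change 1.15, SE 0.33, adjusted p = 0.0162). *Car9*, a membrane carbonic anhydrase induced by HIF, was at 0.416, 0.528, 1.96, 2.83 and 1.93 FPM against 0.349, 0.267 and 0.455 FPM, from 6 to 48 reads per library, with replicate 1 again in the 6w+dox range (log2 fold change 1.07, SE 0.37, adjusted p = 0.0367).

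*Pfkfb3* remained above 6w+dox (0.79, adjusted p = 0.0331), and *Pfkp*, *Pgk1*, *Eno2* and *Pgam1* (phosphoglycerate mutase) rose by 0.90, 0.70, 0.60 and 0.53 on the log2 scale. *Eno3* was at 26.8, 58.5, 45.1, 55.9 and 52.9 FPM against 106, 97.3 and 96.5 FPM below every 6w+dox mouse (log2 fold change -1.10, SE 0.24, adjusted p = 0.00319), and *Ldhb* fell too (log2 fold change -0.78, adjusted p = 0.0016). Pars distalis markers summed to 17320 to 34968 FPM in 12w-res and neural lobe markers to 6.29 to 10.8 FPM, against the 6w+dox sums given above, with 3 of 8 and 4 of 4 markers lower. Their part in these differences was not tested. *Eno1b* passed as lower (log2 fold change -5.0, adjusted p = 0.000456), with the limits given above.

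*Slc2a1* (0.10, adjusted p = 0.767), *Ldha* (0.56, 0.14), *Pkm* (0.27, 0.25), *Hif1a* (0.18, 0.206), *Epas1* (0.34, 0.377), *Mpc1* (0.34, 0.265) and *Mpc2* (-0.29, 0.308) did not pass, although *Epas1* was above 6w+dox in all 5 mice. Without 6w+dox replicate 3, the lowest of its group for *Hk2*, *Ldha* and *Slc16a3*, 7 genes rose and 6 fell, *Slc16a3*, *Hk2*, *Pgk1*, *Pgam1* and *Pfkfb3* lost their pass, and *Mpc2* gained one as lower. *Pgam1* also lost it without 6w+dox replicate 1 or 12w-res replicate 4 or 5, *Pfkfb3* without 6w+dox replicate 1 or 12w-res replicate 2, 4 or 5, and *Car9* without 6w+dox replicate 1 or 2 or 12w-res replicates 3 to 5 (adjusted p up to 0.124 in these fits). With totals of recovered reads the median of all genes was -0.33, and 6 genes rose and 9 fell, again without a share of all genes. Nor is that share given for the fit without 6w+dox replicate 3. Relative to the median of all genes the listed genes lay at 0.27 with totals and at 0.29 with the deposited scaling.

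The 12w-res mice differed among themselves, over all genes as well as over the listed ones. Over all genes, the chi-square per degree of freedom between the reads of 2 mice was 36.8 to 39.8 in pairs with replicate 1. It was 11.2 to 24.6 in the other pairs. Over the 41 genes, replicate 1 was the lowest of the 5 mice for 18 and the highest for 4. Replicate 4 was the lowest for 3 and the highest for 22. The same counts over all genes are not given here. Replicate 1, a male, was lowest among others for *Hk2*, *Pfkfb3*, *Slc16a3*, *Egln3*, *Car9*, *Adm* (3.80 FPM), *Ldha* and *Bnip3* (112 FPM), and replicate 4, a female, was the highest for *Hk2*, *Slc16a3*, *Egln3*, *Car9*, *Adm* (30.1 FPM), *Ldha* and *Bnip3* (202 FPM). Replicate 1 was the highest for *Ndrg1* (27.6 FPM), *Aldoc* (111 FPM), *Hk1* (150.4 FPM) and *Mpc2* (43.5 FPM). *Adm* encodes adrenomedullin, a vessel-dilating peptide induced by hypoxia. For *Car9* the 2 males were at 0.416 and 0.528 FPM and the 3 females at 1.93 to 2.83 FPM. A term for a different change from 12w+dox to 12w-res in the sexes passed in 0 of 40 listed genes and in 13 of 15108 genes tested (limma). The smallest adjusted p of the listed genes was that of *Car9* (0.584).

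Levels of isozymes were compared per kilobase of exons (FPM per kb, means with SD). The length was that of all annotated exons of a gene over all its transcripts (GENCODE vM21), so the order of isozymes depends on that annotation. *Hk1* was above *Hk2* in all long-term groups, 16.7 ± 1.62 against 1.24 ± 0.531 at 6w+dox, 14.4 ± 2.14 against 3.02 ± 0.548 at 12w+dox and 16.6 ± 0.835 against 2.88 ± 1.03 in 12w-res. *Ldha* was at 59.3 ± 20.8, 104 ± 38.6 and 84.3 ± 16.8 and *Ldhb* at 21.2 ± 3.23, 11.6 ± 2.04 and 12.1 ± 1.38 in the same order. On this scale *Pfkm* was the highest phosphofructokinase at 12w+dox, at 36.0 ± 3.01, with *Pfkl* at 19.3 ± 3.70 and *Pfkp* at 7.26 ± 1.89. That order rests on exon lengths of 3340, 6675 and 13401 bases for *Pfkm*, *Pfkl* and *Pfkp*. In FPM, *Pfkl* (101 to 161) and *Pfkm* (110 to 129) overlapped at 12w+dox. In 12w-res, *Pfkp* (102 to 160 FPM) reached above *Pfkm* (94.7 to 113 FPM).

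Among the kinases of pyruvate dehydrogenase, *Pdk1*, *Pdk2* and *Pdk3* were at 5.13 ± 0.390, 6.58 ± 1.39 and 5.94 ± 0.705 FPM per kb at 6w+dox, with SDs that overlapped. At 12w+dox *Pdk1* (10.3 ± 1.59) and *Pdk2* (9.35 ± 2.76) had overlapping SDs, and in 12w-res *Pdk2* was at 20.6 ± 1.12 beside 9.23 ± 0.986 for *Pdk1*. This order too rests on the exon lengths, 7779 bases for *Pdk1* and 3163 for *Pdk2*. In FPM, *Pdk1* was above *Pdk2* in all 6w+dox and 12w+dox mice, and they overlapped in 12w-res (61.0 to 80.3 and 59.8 to 69.7). *Pdk4* was lowest in each group, at 0.607 to 1.16 FPM per kb. *Hif1a* was above *Epas1* at 6w+dox (14.3 ± 1.05 and 6.67 ± 0.545), 12w+dox (17.2 ± 1.80 and 3.66 ± 1.92) and 12w-res (16.2 ± 1.28 and 8.49 ± 0.734).

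**Figure D3:**
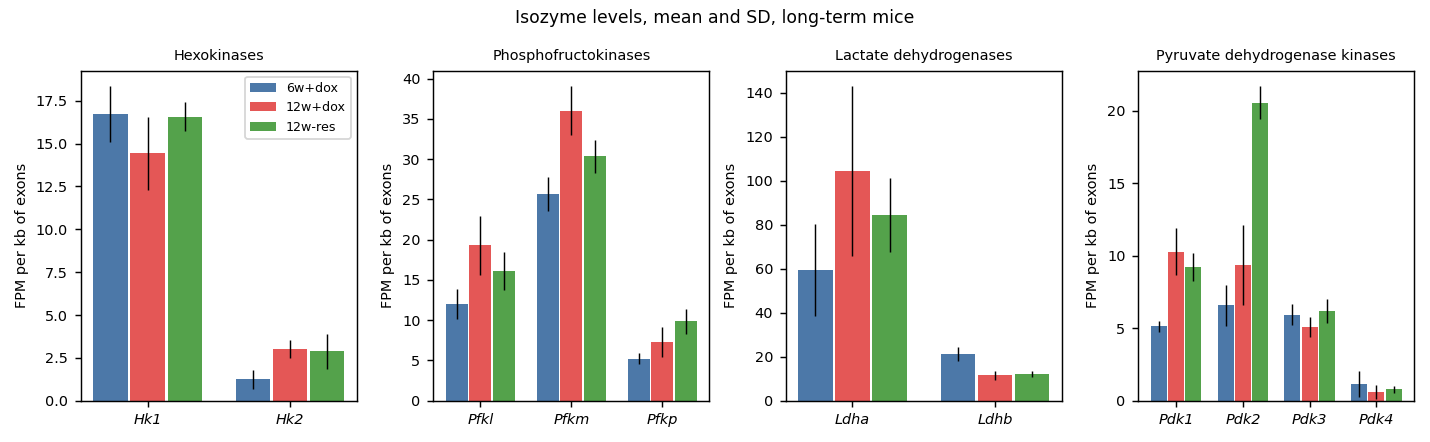
Mean level per kilobase of exons (y axis, FPM per kb, error bars are the SD) of hexokinases, phosphofructokinases, lactate dehydrogenases and pyruvate dehydrogenase kinases in 3 mice of 6w+dox, 4 of 12w+dox and 5 of 12w-res. *Hk2* stays below *Hk1* in all groups, and *Pdk2* reaches 20.6 FPM per kb in 12w-res.

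Other genes of the same pathways, listed with earlier results known, were counted next, and the shares of all genes that rose and fell (10.4% and 12%, 19.4% and 18.3%, and 17% and 16.8% in the 3 comparisons in the order above) stand beside each count. Of 22 further hypoxia response genes, 7 rose (31.8%) and 0 fell at 12w+dox against 6w+dox, and *Gys1* (muscle-type glycogen synthase) had the largest rise (log2 fold change 1.14, adjusted p = 0.000315). In 12w-res against 12w+dox 5 rose (22.7%) and 6 fell (27.3%), not far from the 19.4% and 18.3% of all genes, with *Loxl2* (1.68) and *Stc2* (1.64) rising most, and in 12w-res against 6w+dox 6 rose (27.3%) and 0 fell, led by *Stc2* (2.14), *Loxl2* (1.96) and *Gys1* (1.5). *Loxl2*, a lysyl oxidase that crosslinks collagen, moved beside 7 fibroblast and pericyte markers that summed to 797 to 1271 FPM in 12w-res, 141 to 438 FPM at 12w+dox and 346 to 355 FPM at 6w+dox, and their part in it was not tested.

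Of the 8 genes of the pyruvate dehydrogenase complex and its phosphatases, 3 rose (37.5%, against 10.4% of all genes) and 0 fell from 6w+dox to 12w+dox, among them *Pdpr* (1.82, adjusted p = 0.000918) and *Pdp2* (1.14, adjusted p = 0.00148), the regulator and a catalytic subunit of the phosphatase that undoes the work of the kinases. In 12w-res against 12w+dox *Pdpr* fell by 1.05 on the log2 scale (adjusted p = 0.00442) and *Pdp2* and *Pdp1* fell too, while *Pdha1*, a subunit of the enzyme itself, rose, giving 2 higher (25%, against 19.4%) and 3 lower (37.5%, against 18.3%). In 12w-res against 6w+dox 4 rose (50%, against 17%) and 0 fell.

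Of 20 other glycolysis isozymes and transporters, 2 rose and 1 fell at 12w+dox against 6w+dox (10% and 5%, against 10.4% and 12% of all genes). In 12w-res 6 rose and 3 fell (30% and 15%) both against 12w+dox, where 19.4% and 18.3% of all genes did, and against 6w+dox, where 17% and 16.8% did. *Slc2a4*, the insulin-responsive transporter GLUT4, fell most of this list in both comparisons of 12w-res (log2 fold changes -2.01 and -1.96, adjusted p = 7.41e-05 and 0.000207), and *Slc2a6* rose in both (1.15 and 1.27). *Galm*, which interconverts the anomers of sugars, rose in 12w-res against 12w+dox (1.14, adjusted p = 4.06e-05), and *Hk3* rose at 12w+dox against 6w+dox (1.16, adjusted p = 0.0277). *Hk3* is a hexokinase of myeloid cells, and the macrophage markers summed to 101 to 150 FPM in the 6w+dox mice, 104 to 139 in the 12w+dox mice and 159 to 229 in the 12w-res mice, with their part in it not tested.

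Of 9 HIF pathway regulators, 3 rose (33.3%, against 10.4% of all genes) and 1 fell (11.1%, against 12%) at 12w+dox against 6w+dox. Among them *Vhl*, which targets hydroxylated HIF for destruction, rose by 0.51 on the log2 scale, and *Hif3a* fell (log2 fold change -1.16, adjusted p = 0.0353, groups overlapping). In 12w-res against 12w+dox 0 rose and 3 fell (33.3%, against 18.3%), and against 6w+dox 0 rose and 1 fell (11.1%, against 16.8%). Of 8 pentose phosphate genes, 1 rose and 2 fell (12.5% and 25%), 2 rose and 1 fell (25% and 12.5%), and 4 rose and 1 fell (50% and 12.5%) in the 3 comparisons in the same order, with *Rpia* lower by 1.13 in the last (log2 fold change -1.13). Of 7 genes of glycerol phosphate and gluconeogenesis 0, 2 and 2 rose (0%, 28.6% and 28.6%) and 0 fell in each, with *Gpd1* (glycerol-3-phosphate dehydrogenase) higher in 12w-res by 1.09 and 1.21.

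In the first days after dox removal few of these genes passed the test. No listed gene passed at 1 day or 3 days, and 3 of 37 passed at 5 days, all set against the same 3 male 16w +dox mice. All mice of 1d -dox and of 5d -dox were female, and time and sex cannot be told apart in those comparisons, while 3d -dox and 16w +dox were both male. Levels of these libraries are not compared with the long-term ones, which were prepared in another way.

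At 5 days *Pdk2* and *Eno3* rose and *Epas1* fell, which makes 2 of 37 genes higher (5.41%) and 1 lower (2.70%), with 0.337% and 0.172% of all 13958 genes tested. None had an absolute log2 fold change over 1, which 0.086% and 0.107% of all genes had with a pass as higher and lower. The groups did not overlap for 6 genes upward and 2 downward, with 9.64% of all genes in each direction. *Pdk2* was at 8.44, 10.8 and 8.22 FPM in 16w +dox, at 14.8, 14.6, 11.8 and 15.2 in 1d -dox, at 14.0, 17.2 and 11.4 in 3d -dox and at 17, 19.6 and 16.1 in 5d -dox. All mice off dox lay above all 16w +dox mice, the males of 3d -dox included. The log2 fold changes against 16w +dox were 0.60 (SE 0.14, adjusted p = 0.104) at 1 day, 0.60 (SE 0.15, adjusted p = 0.0843) at 3 days and 0.91 (SE 0.15, adjusted p = 0.0135) at 5 days. Between the 5d -dox and 1d -dox females it was 0.31 (adjusted p = 0.758).

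*Eno3* was at 5.37, 4.73 and 5.0 FPM in 16w +dox and 4.06, 5.41 and 5.17 in 3d -dox, the male groups, and at 7.71, 8.61, 6.08 and 8.44 in 1d -dox and 8.86, 7.97 and 8.86 in 5d -dox, the female groups. Both female groups lay above both male groups, with a log2 fold change of 0.71 at 5 days (SE 0.13, adjusted p = 0.0349) and -0.048 at 3 days (adjusted p = 0.897).

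*Epas1* showed the opposite order, 16.1, 27.2 and 15.6 FPM in 16w +dox and 19.6, 13.9 and 17.3 in 3d -dox against 9.77, 12.2, 11 and 11.4 in 1d -dox and 10.8, 10.6 and 7.79 in 5d -dox. Its log2 fold change at 5 days was -0.94 (SE 0.19, adjusted p = 0.0433). The 8 endothelial markers summed to 26.5 to 45.0 FPM in 16w +dox, 24.6 to 44.9 in 3d -dox, 15.5 to 18.8 in 1d -dox and 11.6 to 15.9 in 5d -dox, and their part was not tested. The calls at 5 days were fragile: *Eno3* lost its pass without any 1 of the 6 mice compared (adjusted p up to 0.116), *Pdk2* without 16w +dox replicate 1 or any 5d -dox mouse (up to 0.0928) and *Epas1* in 11 of 13 fits without 1 mouse, all but those without 16w +dox replicate 3 or 3d -dox replicate 2 (up to 0.163). Other markers were lower in 5d -dox too: 7 fibroblast and pericyte markers summed to 37.2 to 62.9 FPM against 81.3 to 109.9 in 16w +dox, and 8 pars distalis markers to 25.6 to 102 FPM against 198 to 239, with 1 of each list passing. Their part in the calls was not tested.

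**Figure D4:**
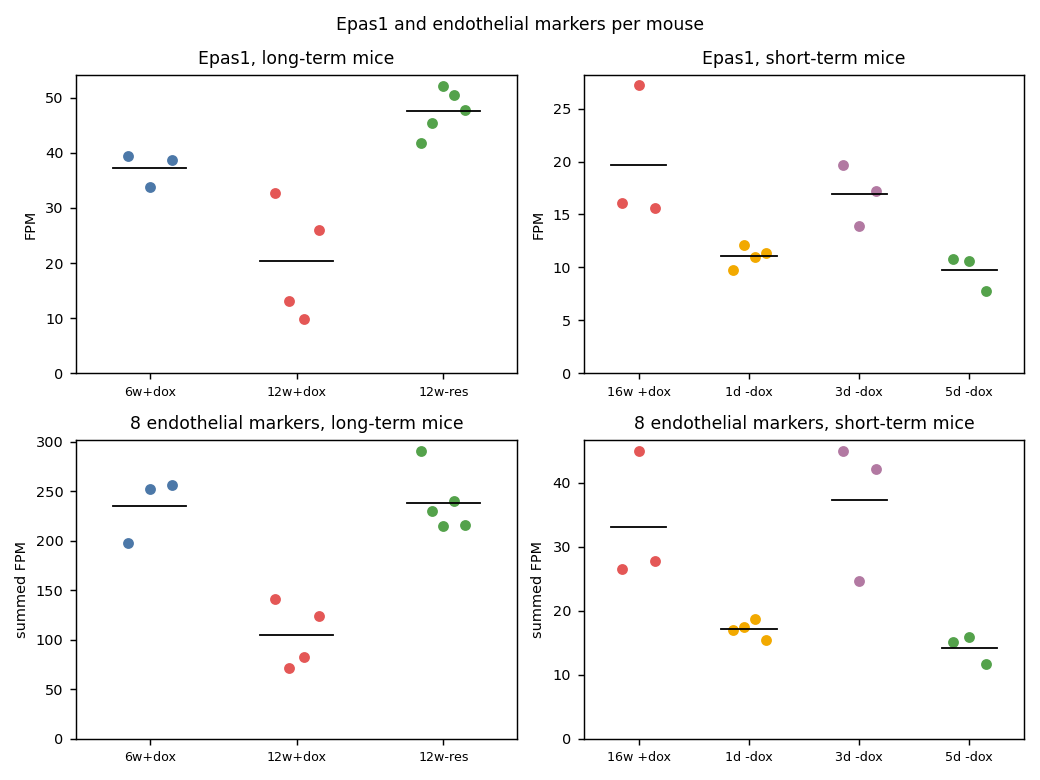
*Epas1* (upper panels, FPM) and the summed FPM of 8 endothelial markers (lower panels) in each mouse (points, bars at the group mean), long-term mice on the left and short-term mice on the right. Both means are lowest at 12w+dox among the long-term groups, and lower in 1d -dox and 5d -dox (females) than in 16w +dox and 3d -dox (males).

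At 3 days, within males, 0 of 37 genes passed by limma or edgeR (of all genes, edgeR passed 0.136% as higher and 0.186% as lower), and 1 rose and 5 fell by DESeq2, which passed 1.17% and 1.74% of all genes. At an unadjusted p under 0.05 in limma, 2 were higher and 10 lower, with 7.95% and 8.7% of all genes. The median log2 fold change was -0.20, with 0.0092 for all genes. Cell type markers differed as well: 5 melanotroph markers summed to 12469 to 28943 FPM in 3d -dox against 35280.4 to 38080.0 in 16w +dox without overlap (0 passed), and the 8 pars distalis markers, at 167 to 885 FPM against 198 to 239, all had log2 fold changes above 0 (median 1.07, 1 passed). Their part in the listed genes' values was not tested. The groups did not overlap for 10 genes in the downward direction (27%) and 3 upward (8.11%), where 11% and 10.6% of all genes did so, and 0.158% and 0.201% of all genes passed as higher and lower. *Egln3* was at 4.17, 4.53 and 5.74 FPM against 9.11, 11.1 and 7.35 FPM in 16w +dox, without overlap (log2 fold change -0.86, SE 0.18, adjusted p = 0.0679). *Gapdh* was at 121, 141 and 132 FPM against 163, 162 and 165 FPM (log2 fold change -0.32, adjusted p = 0.0794) and *Adm* at 1.13, 1.18 and 2.55 FPM against 3.84, 5.77 and 3.42 FPM (log2 fold change -1.22, adjusted p = 0.145). These 3 genes were named after their values were seen. With totals of recovered reads the medians were -0.050 for the listed genes and 0.14 for all genes.

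At 1 day, limma and edgeR passed 0 of 37 genes, where 0.043% and 0.0573% of all genes were higher and lower by limma and 0.0215% and 0.0502% by edgeR. DESeq2 passed 2 as higher and 1 as lower, with 1.03% and 1.19% of all genes. At an unadjusted p under 0.05 in limma 3 were higher and 1 lower, with 6.78% and 6.28% of all genes. Between 5d -dox and 1d -dox, both female, limma, edgeR and DESeq2 passed 0 listed genes. Of all genes, 0.00716% were higher and 0.00716% lower by limma and by edgeR, and 0.125% and 0.0311% by DESeq2. At an unadjusted p under 0.05 in limma 1 was higher and 0 lower, with 3.65% and 2.67% of all genes. *Eno1b* was again present in some mice of every group and near 0 in others, at 0.0749, 3.53 and 4.19 FPM in 16w +dox, 0.103, 4.98, 3.66 and 0.0234 in 1d -dox, 0.0217, 0.102 and 2.78 in 3d -dox and 0, 3.79 and 5.66 in 5d -dox. None of the 6 further pathway lists had a gene that passed in a short-term comparison.

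**Figure D5:**
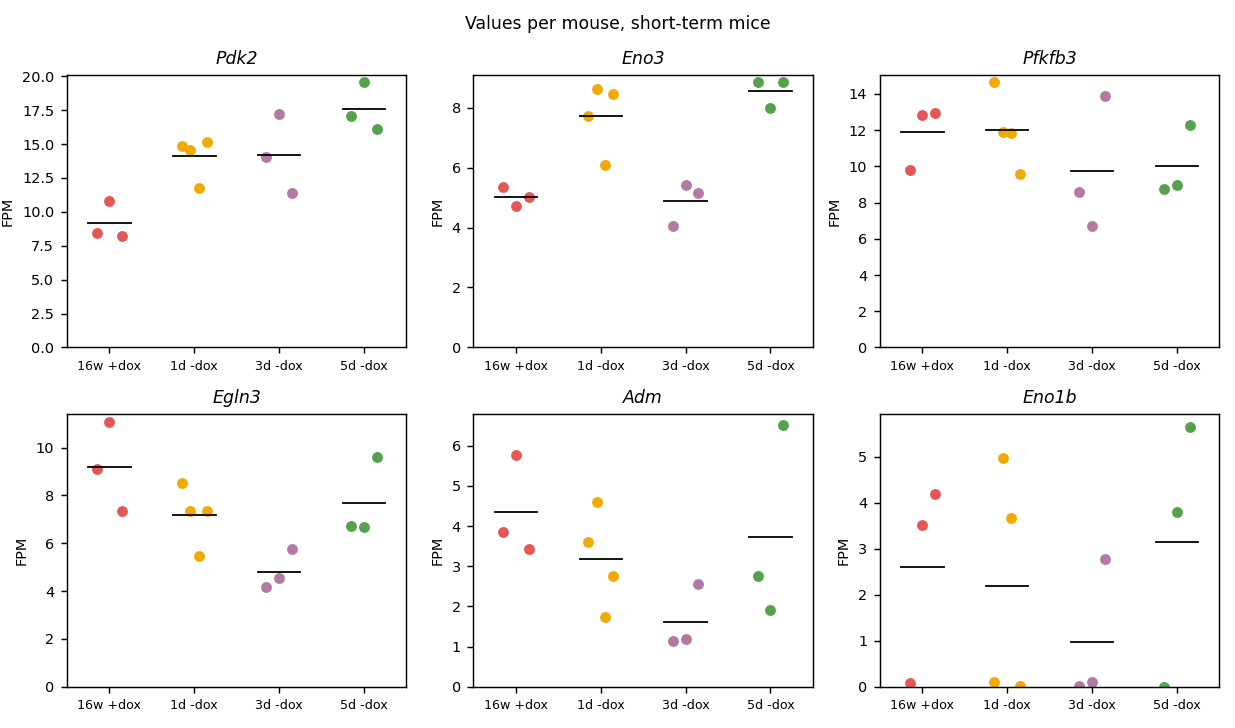
FPM (y axis) of 6 of the genes in each short-term mouse (points, replicate order from left to right, bars at the group mean). *Pdk2* is above the 16w +dox mice in all mice off dox, *Eno3* is higher in the 1d -dox and 5d -dox females, and *Egln3* has its lowest mean in 3d -dox (4.17 to 5.74 FPM).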

How the data were processed

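RNA-seq of pituitaries from 25 sh*Rb* mice was analysed, 12 in the long-term experiment (poly(A)-enriched libraries) and 13 in the short-term experiment (libraries depleted of ribosomal RNA), 1 library per mouse and at 19066053 to 28968476 and 9573101 to 13036900 reads on genes. Reads were aligned by the authors (STAR, mm10) and counted on RefSeq genes, and they deposited a signal per gene and mouse, FPM, already scaled by DESeq2 size factors. The counting tool and its use of strand are not given in the sources used here. Dividing the values by what 1 read is worth in each library gave whole reads for 100% of them (tolerance 0.1 of a read). Left out were 4 lines of the short-term experiment that name no gene, with 68.8% to 75.0% of its reads, and 2 unnamed lines of the long-term one. All per-sample columns were used (0 were not).

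A gene was tested if over 50% of the mice in any group held 10 or more of its reads. The test was that of limma 3.58.1 in R 4.3.3, applied to log2(FPM + 0.5) and with a mean-dependent prior (trend), with all groups of an experiment in one fit and Benjamini-Hochberg adjustment over all genes tested. The alternatives were pseudocounts of 0.1 and 1, totals of recovered reads, TMM scaling, edgeR 4.0.16 (quasi-likelihood), DESeq2 1.42.0, other filters, a fit of the compared groups alone, a block for replicate number, a covariate for sex, females only, a minimum log2 fold change of 1, and each mouse left out in turn. The tests were tried on simulated reads first.

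Genes were named by rule: those past the test with an absolute log2 fold change over 1 with all mice's values, other genes past the test with the fold change, and 11 genes in every long-term comparison. The genes, the further pathway lists and the cell type markers were chosen with earlier results of these data known. Same-numbered mice did not deviate together: of 10 long-term and 18 short-term pairs, 1 and 3 correlated above 0.1. Replicates differed by more than counting error (chi-square per degree of freedom 3.90 to 219 in 34 pairs). Gene positions and promoters came from RefSeq (GRCm38.p6) and exon lengths from GENCODE vM21, matched for all 42 genes, with 38 found among the promoters. Transcripts were aligned with blastn 2.17.0.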

Additional observations from a re-analysis of the deposited data

Results flagged for a closer look

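A single mouse far from the rest of its group was found in 4 of the 119 groups of 4 or 5 mice examined over the listed genes, where chance gives about 1 in 20. *Eno1b* was at 22.1 FPM in 12w+dox replicate 1 and at 0.233 to 0.431 FPM in the other 3 mice. *Ndrg1* was at 26.2 FPM in 12w+dox replicate 3, with the others at 15.6 to 17.2 FPM. *Aldoa* was at 1563 FPM in 12w-res replicate 4, with the others at 1243 to 1316 FPM. *Slc16a3* was at 7.24 FPM in 1d -dox replicate 2, with the others at 5.36 to 5.65 FPM.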

How the results depend on the processing

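Of the 62 gene results, 53 kept their direction under every alternative and 13 also kept their side of the threshold. With totals of recovered reads the numbers of genes higher and lower became 23 and 3 (12w+dox against 6w+dox), 2 and 27 (12w-res against 12w+dox), 6 and 9 (12w-res against 6w+dox), 1 and 0 (3d -dox) and 1 and 0 (5d -dox). The medians became 0.75, -0.70, -0.060, -0.050 and -0.019. The median of all genes moved alike in the long-term comparisons, and the shares of all genes called with totals are not given here. *Pfkp* (-0.19), *Eno2* (-0.22) and *Mpc2* (-0.40) in 12w-res against 12w+dox and *Slc2a1* (-0.22), *Pkm* (-0.060) and *Hif1a* (-0.15) in 12w-res against 6w+dox then reversed. With females only, which leaves fewer mice, the counts were 5 and 2, and 3 and 1, in the first 2 comparisons, and *Hk2* (0.16), *Ldha* (0.10) and *Mpc1* (0.037) reversed in the second. With a minimum log2 fold change of 1, 4 genes were higher in the first comparison, 2 were higher and 1 lower in the second, 5 were higher in the third, and 0 passed at 5 days. DESeq2 called 7 lower in the second, 2 higher and 1 lower at 1 day, and 1 higher and 5 lower at 3 days. With only the 2 groups compared, 2 were lower in the first, 6 lower in the second, and 0 passed at 5 days. The causes were not tested beyond what each alternative itself changes. Apart from those given above, the shares of all genes called under the alternatives of this section, fits without 1 mouse included, are not given.

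Leaving out 1 mouse gave 9 to 15 genes higher and 3 to 7 lower in the first comparison (7 without 6w+dox replicate 3), 2 to 7 lower in the second (7 without 12w+dox replicate 1), with a median of -0.12 to 0.033 there, 7 to 14 higher in the third (7 without 6w+dox replicate 3, 14 without 12w-res replicate 1) and 3 to 6 lower there (6 without 6w+dox replicate 3), 0 to 1 lower at 3 days, 0 to 2 higher and 0 to 1 lower at 5 days, and a median of -0.024 to 0.10 at 5 days. *Hk2* (-0.27 to 0.13) and *Mpc1* (-0.17 to 0.052) in the second and *Slc2a1* (-0.086 to 0.26) in the third changed sign.

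The replicate number as a block, which pairs nothing known in the labels, left 5 genes higher in 12w-res against 6w+dox, and 1 higher and 0 lower at 5 days. Correlations of same-numbered mice ran from -0.17 to 0.24 in the long-term and -0.21 to 0.17 in the short-term experiment. Sex as a covariate could not be fitted in the short-term experiment. *Car9* rests on 6 to 48 reads per library.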
